A study of Mus musculus with 2 samples.

Results

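The genes described here encode the proteins of the cytosolic ribosome, together with their paralogs, which are duplicate genes that can stand in for a ribosomal protein in some tissues. They were chosen by gene symbol alone, through the naming pattern of large subunit (Rpl), small subunit (Rps) and stalk (Rplp0 to Rplp2) genes and Rpsa. The pattern found 84 gene symbols among 27467 genes with a probe on the array. One of them, Rps6kl1, is named after a kinase and is no ribosomal protein, so it was set apart (its log2 difference was -0.13, with control and N2ICD signals of 28.2 and 28.9). The remaining 83 were 75 ribosomal protein genes (42 of the large subunit, 30 of the small subunit and 3 of the stalk) and 8 paralogs: Rpl3l, Rpl10l, Rpl22l1, Rpl36al, Rpl39l, Rpl7l1, Rps12l2 and Rps27l. All 75 ribosomal protein genes and 6 of the 8 paralogs were measured, meaning that at least 1 probe was well above background on both arrays, as were 13663 genes in all.

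RNA was taken from the tibialis anterior, a mostly fast muscle of the shin. All mice were C57BL/6 males described as adult. There were 2 arrays, 1 of a control mouse and 1 of a mouse carrying activated Notch2 (N2ICD, the intracellular part of the receptor, which enters the nucleus and switches on Notch target genes) as a transgene. The series title places Notch2 in myofibers; the sources used here name neither the promoter of the transgene nor the genotype of the control beyond that word. The question asked of the ribosomal genes was whether their transcripts differed between the N2ICD and the control muscle.

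A ribosome is built from a large and a small subunit, each made of ribosomal RNA and its own set of proteins. Nearly every cell makes these proteins in closely matched amounts. Their mRNAs carry a pyrimidine tract at the very 5′ end (they are called TOP mRNAs, for terminal oligopyrimidine), through which the growth kinase mTOR controls how much of them is translated. Ribosome content sets the capacity of a muscle fibre to make protein and is known to increase when muscle grows. Striated muscle also makes Rpl3l, a paralog that takes the place of Rpl3 in part of its ribosomes.

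Every value below is a log2 difference, N2ICD minus control, of processed probe signals after each array was scaled to its 75th percentile, which lay at a signal of 169 in control and 190.4 in N2ICD; a probe with those signals has a difference of 0. A gene's difference is the mean over its measured probes. With 1 array per group there was no replicate check and no test, genotype, animal, dissection and array cannot be told apart, and a fold is a description of these arrays. Among 59305 gene spots, 24916 (control) and 24982 (N2ICD) were well above background and 0 were saturated. Noise within the arrays was read in a pair of ways: repeated spots of a probe had an SD of 0.16 in their difference (238 probes), from 0.27 in the dimmest to 0.05 in the brightest of the level groups, and the SD between different probes of one gene was 0.25 over 3158 genes. Neither holds any spread between animals. As a check of the labels, Notch2 was at 6.01 (not well above background) in control and 221 in N2ICD at its probe at position 7448, and at 189 and 179 at its probe at position 10129, and Hes1, a direct target of Notch, had signals of 55.4 and 348.5.

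The ribosomal protein genes stood slightly higher in the N2ICD array, as a narrow group. Their median difference was 0.10, a 1.07-fold higher level, against 0.01 for all 13663 measured genes. Of the 75 genes, 57 (76%) lay above 0, against 50.7% of all genes. Their SD was 0.13, compared with 0.38 over all genes, and their range ran from -0.18 to 0.48. At least 1.2-fold higher were 5 of the 75, against 18.0% of all genes, and at least 1.2-fold lower were 0, against 18.6%. None of the 75 reached a 2-fold difference in either direction, where 1.42% of all genes were higher and 0.893% lower. Different probes of one ribosomal protein gene had an SD of 0.11 (59 genes with several probes). When the arrays were instead scaled by their E1A spike-in RNA, all genes had a median of 0.48 and the ribosomal protein genes one of 0.58, and all 75 lay at least 1.2-fold higher, as did 77.3% of all genes; every difference below is therefore one relative to the bulk of the transcripts and not an absolute amount per muscle.

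**Figure D1:**
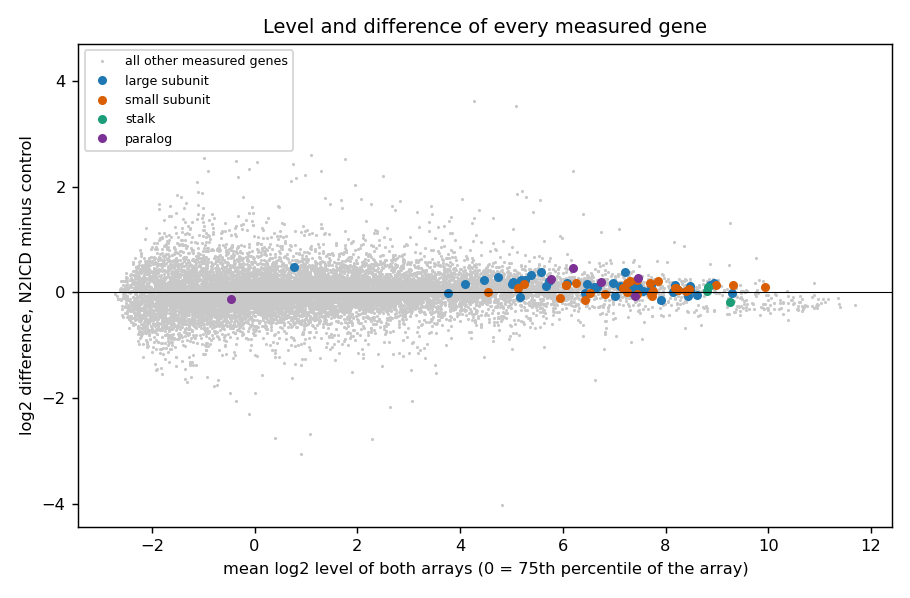
Each point is a measured gene, with its mean log2 level over both arrays (0 is the 75th percentile of the array) on the x axis and its log2 difference, N2ICD minus control, on the y axis; coloured points are large subunit, small subunit, stalk and paralog genes. The coloured points lie between -0.18 and 0.48, while the grey points of all other genes spread further in both directions.

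In the large subunit, the median difference of the 42 genes was 0.13, and 32 of them lay above 0. All 5 genes that were at least 1.2-fold higher belong to this subunit: Rpl21, Rpl14, Rpl4, Rpl23 and Rpl15. Rpl14 was the case in which several probes gave a like value. Its probe at position 651 had a signal of 59738 in control and of 85919.8 in N2ICD, its probe at position 419 had 32619 and 47328, and its probe at position 853 had 176 and 272. The 3 differences were 0.35, 0.36 and 0.46, with a mean of 0.39, a 1.31-fold higher level. Rpl4, which lines part of the tunnel through which the new protein leaves the ribosome, was read by 1 probe, with control and N2ICD signals of 21987 and 32283, a difference of 0.38.

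Rpl23, which can bind and restrain the p53 ligase Mdm2 when free of the ribosome, has a probe printed 10 times. The spots of this probe, at position 925, ran from 279 to 324 on the control array (median 303) and from 449.7 to 503 on the N2ICD array (median 485). The N2ICD spots all lay above the control spots, with a difference of 0.49 ± 0.10 (SD over 10 spots of 1 array pair, which are no biological replicates). Its 2 brighter probes gave smaller differences: 0.35 at position 492, with signals of 37109 and 53174, and 0.17 at position 363, with 21953 and 27818. The gene's mean was 0.33.

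Rpl21 and Rpl15 were read by probes that differed widely, with the higher values at dim probes. The Rpl21 probe at position 377 gave 11027 in control and 13732 in N2ICD, a difference of 0.14. Those at positions 824 and 1514 had signals of 32.9 and 54.5, and of 39.3 and 73.8, with differences of 0.56 and 0.74. After normexp background correction the mean of Rpl21 was 0.17 in place of 0.48. For Rpl15, the probe at position 461 had signals of 28158 and 33343, a difference of 0.07, and that at position 1530 had 585 and 940.5, a difference of 0.51. With each gene read by its brightest probe, Rpl21 lay at 0.14 and Rpl15 at 0.07, both under 1.2-fold. The bright probes of both genes share a run of at least 25 bases with probes of other gene names and the dim ones do not. With the probes that share no such run, Rpl21 lay at 0.65 and Rpl15 at 0.51.

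Large subunit genes with known roles outside the ribosome lay on both sides of the group's median. Rpl5 and Rpl11, which together with the small ribosomal RNA of the large subunit bind Mdm2, had differences of 0.22 (signals of 8275 and 10856) and 0.10 (brightest probe, 54670.2 and 62170.3). Rpl13a, which leaves the ribosome under interferon to repress inflammatory mRNAs, had 0.16, with signals of 27692 and 33694 at its brightest probe. Rpl10, which joins the large subunit last in its assembly, had 0.17. Rpl38, needed for translation of Hox mRNAs in the embryo, had -0.08, with signals of 62091 and 64538. Rpl37a, a zinc-binding protein, had -0.02, with signals of 111252 and 120103 at its brightest probe. Rpl10a had the lowest value of the large subunit at -0.16, and its probes were alike, at -0.15 (36532 and 37028) and -0.16 (50347 and 50753). Before the scaling to the 75th percentile, the Rpl10a signals of the arrays were nearly equal, but such signals are not normalized between arrays. On the spike-in scale no ribosomal protein gene was below 0.

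In the small subunit the median difference was 0.08 over 30 genes, 23 lay above 0, and none reached 1.2-fold in either direction. The highest was Rps9 at 0.23, read by 1 probe with control and N2ICD signals of 27105 and 35767.5, followed by Rps12 at 0.22 and Rps25 at 0.22. Rps6, the protein that the S6 kinases phosphorylate downstream of mTOR, had a mean of 0.16, and its 3 probes gave 0.28 (25960.1 and 35486), 0.13 (10343 and 12725) and 0.07 (817 and 968). Rps18, often used as a reference gene, had 0.14, and Rps27a, made as a fusion with ubiquitin, had 0.08 from probes at 0.19 and -0.04. Rps14, which part of the platform of the small subunit, had 0.10 from 1 probe with signals of 159249 and 192554. The lowest were Rps15 at -0.15 and Rps21 at -0.12. Rps15 was read by probes with signals of 10070.1 and 10135.1 and of 23449 and 24164, and Rps21 by 1 probe with 10843.5 and 11258.8.

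Rpsa, a small subunit protein also known as a laminin receptor, had a mean of -0.04 over 3 probes, from -0.13 to 0.03. Its probe at position 1340 was the single member probe well above background on 1 array alone. Its signal was 20.7 in control and 34.8 in N2ICD, from 1 spot near the floor. The scaled N2ICD value was 1.21-fold above the lowest probe well above background on the control array. That level is no firm limit, since the Rpl39l probe was above it in control without being well above background. It entered no mean.

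The stalk proteins form the arm of the large subunit that recruits elongation factors. Rplp1 had a difference of 0.10 (brightest probe, 108681 in control and 132936 in N2ICD) and Rplp0, which anchors the stalk and is a common reference gene, had 0.02. Its 3 probes gave 0.09, 0.01 and -0.05, so the values fell on both sides of 0. Rplp2, the partner of Rplp1, was at -0.18 and had the lowest value of all 75 genes, from 1 probe with signals of 109390 and 108955.

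**Figure D2:**
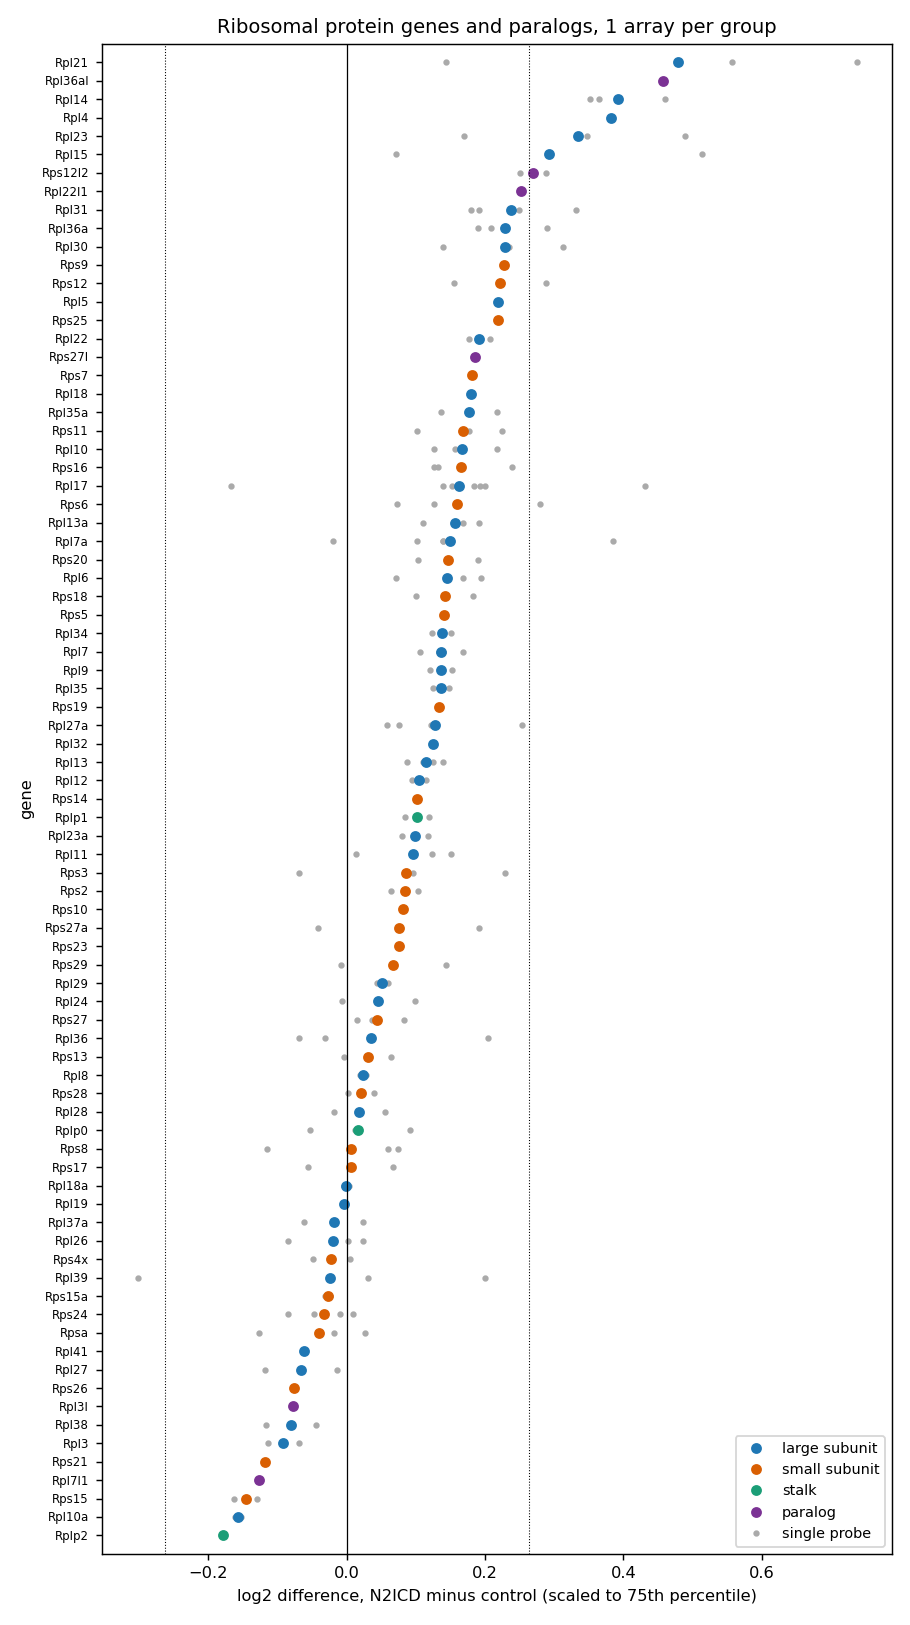
Each row is a measured ribosomal protein gene or paralog, ordered by its log2 difference, N2ICD minus control (x axis); coloured points are gene means, small grey points single probes, and dotted lines mark 1.2-fold in either direction. Gene means run from -0.18 for Rplp2 to 0.48 for Rpl21, and the probes of Rpl17, Rpl21 and Rpl39 differ by more than 0.5.

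Of the paralogs, Rpl3l is the one made in striated muscle. Its difference was -0.08, from 1 probe at position 724 with control and N2ICD signals of 29429 and 31440.2, and its parent Rpl3 had -0.09 from probes at positions 1115 (4637 and 4979, -0.07) and 1236 (8564 and 8922, -0.11). Paralog and parent thus differed by 0.01, well under the spot SD of 0.16, so the balance of Rpl3l to Rpl3 was nearly the same on both arrays; both were above 0 on the spike-in scale (0.40 for Rpl3l). A probe of each gene is shown for the pair, with positions on mm9: the Rpl3 probe lies on the minus strand of chromosome 15 from 79908489 to 79908772, and the Rpl3l probe on the plus strand of chromosome 17 from 24872413 to 24872681. Both intervals are longer than the probe, which has 60 bases.
Rpl3 probe: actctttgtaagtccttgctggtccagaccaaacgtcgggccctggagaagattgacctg
Rpl3l probe: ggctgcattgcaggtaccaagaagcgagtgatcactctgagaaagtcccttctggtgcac
These probes come from different stretches of the transcripts, and whether either also reads the other gene was not tested.

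The highest paralog was Rpl36al, an autosomal copy of the X-linked Rpl36a, at 0.46, from 1 probe with control and N2ICD signals of 10525 and 16273. Rpl36a itself had 0.23 over 3 probes, from 0.19 to 0.29, so the paralog stood 0.23 above its parent. Rpl22l1, the paralog of the RNA-binding protein Rpl22, had 0.25 (8436 and 11325), beside 0.19 for Rpl22. Rps27l, a p53-inducible copy of Rps27, had 0.19 (17066.5 and 21862), beside 0.04 for Rps27.

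Rpl7l1, a relative of Rpl7 that takes part in assembly of the large subunit, lay below its parent. It had -0.13 from a dim probe with signals of 128 and 132, against 0.14 for Rpl7, whose 4 probes ran from 0.11 to 0.17. Rps4l, which the array lists under the name Rps4y2 and which the naming pattern does not hold, had -0.41 from 1 dim probe with control and N2ICD signals of 217 and 184, against -0.02 for Rps4x. Rpl10l and Rpl39l, copies known from the testis, were not well above background on either array, with signals from 5.41 to 6.21 for the Rpl10l probes and of 26.0 and 29.4 for Rpl39l. Over the 6 measured paralogs the median was 0.22, with 4 above 0 (50.7% of all genes were) and 2 at least 1.2-fold higher (Rpl36al and Rps12l2; 18.0% of all genes were).

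Rps12l2 had a difference of 0.27, close to that of Rps12, and the sequences of their probes are shown because they are nearly the same. On mm9, the Rps12 probe at position 321 lies on the minus strand of chromosome 10 from 23505428 to 23505711 and the Rps12l2 probe at position 300 on the plus strand of chromosome 8 from 37089026 to 37089085. Capitals mark the longest run that both share, of 23 bases.
Rps12 probe: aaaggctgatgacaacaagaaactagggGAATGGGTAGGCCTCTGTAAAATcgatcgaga
Rps12l2 probe: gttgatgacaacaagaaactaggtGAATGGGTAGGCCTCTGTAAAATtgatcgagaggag
Laid over each other with an offset of 4, 53 of 56 bases were identical and 3 differed. The probes gave the same difference of 0.29, from signals of 25374 and 34906 for Rps12 and of 15479.8 and 21294.5 for Rps12l2. Whether they read separate transcripts cannot be told from the values, and Rps12l2 is uncertain for that reason.

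Such sharing is common in this family, because ribosomal protein mRNAs have left many processed pseudogenes in the genome. Of the 174 measured ribosomal protein probes, 74 share a run of at least 25 bases with a probe of another gene name and 100 do not. The median differences were 0.09 for the probes that share a run and 0.12 for those that do not. With the latter alone the ribosomal median was 0.11 over 63 genes. The rule compares array probes only and misses shorter runs, such as the 23 bases shared by the Rps12 and Rps12l2 probes. A probe without a shared run may thus still read another copy, which was not tested. In the other direction, 107 probes of other names share a run with a member probe. All 107 were measured, 82 lay above 0, and their median was 0.10. Of 44 probes described on the array as ribosomal pseudogenes or ribosomal protein-like loci, 38 were measured and 36 of those lay above 0, with a median of 0.10. In addition, 11 of 188 placed member probes, belonging to 5 genes, are placed on another chromosome than their gene. The Rpl36 probe placed on chromosome X had a difference of 0.20, where the Rpl36 probes on chromosome 17 had -0.07 and -0.03. Gaps were smaller for Rpl13 (0.12 and 0.09 on chromosome 4, 0.14 and 0.11 on chromosome 8). The same held for Rps4x (-0.05 on chromosome 3, 0.01 on chromosome X). All Rps27 probes are placed on chromosome 9 and all Rps29 probes on chromosome 2, so these genes allow no such comparison.

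Probes of one gene were then compared by their signal. A dim second probe, at least 10 times below the brightest probe of its gene, was present 17 times in 15 ribosomal protein genes. Its difference was above that of the brightest probe in 10 of the 17, with a median excess of 0.06. Among other genes this held for 382 of 877 dim probes, with a median of -0.04. Of the 17 dim probes, 14 lie further along the transcript than the brightest probe, and 9 of these were higher. Rpl15 and Rpl21 had the largest gaps upwards. In the opposite direction, Rps3, a small subunit protein that also acts in DNA repair, had -0.07 at its dim probe and 0.23 at its brightest, and Rpl39, the small protein deep in the exit tunnel, had -0.30 from a probe with signals of 54.9 and 50.1, against 0.03 at its brightest. Rpl17 had 7 probes, and its dim probe at -0.17 (116 in control and 117 in N2ICD) stood below the others, which ran from 0.14 to 0.43. Without the dim probes the median over the 75 genes remained 0.10. The genes at least 1.2-fold higher were then 2 (Rpl4 and Rpl14) in place of 5, against 18.0% of all genes.

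**Figure D3:**
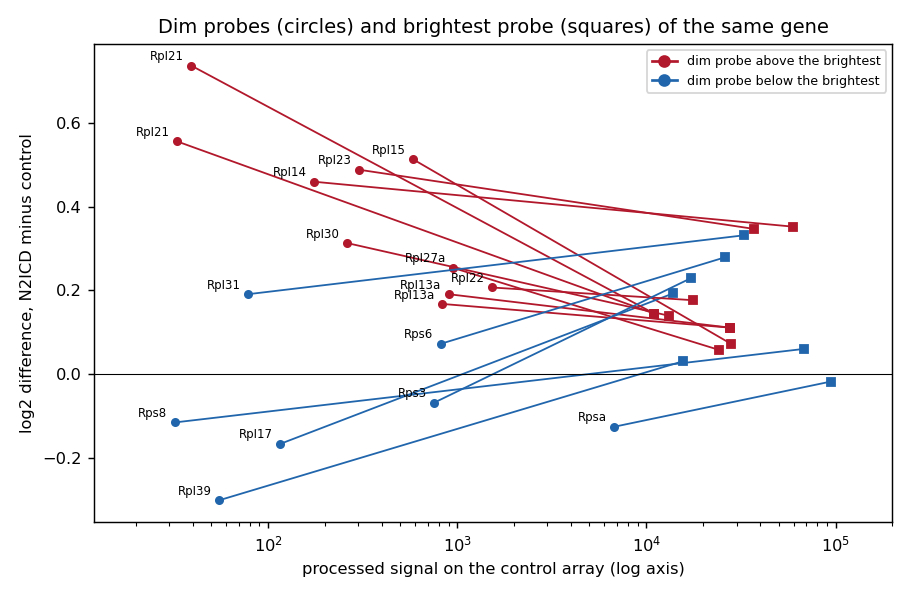
Each line joins the brightest probe of a ribosomal protein gene (square) to a probe at least 10 times dimmer (circle), with the control signal on a log x axis and the log2 difference, N2ICD minus control, on the y axis. In 10 of 17 cases (red) the dim probe has the higher difference, most of all for Rpl21 and Rpl15; in the rest (blue) it has the lower one.

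Signal level bears on such comparisons, so the ribosomal probes were set beside other probes of like signal. Between control signals of 10000 and 30000 lie 72 of the ribosomal probes, with a median of 0.13 and 61 above 0. The 731 other probes there had a median of 0.06, with 61.8% of them above 0. The SDs were 0.11 and 0.30. Above 60000 the 29 ribosomal probes had a median of 0.07, with 20 above 0, while the 275 other probes had -0.12, with 31.3% of them above 0. Between 30000 and 60000 the medians were 0.06 for 42 ribosomal probes and 0.03 for 228 others, and between 1000 and 10000 they were 0.14 for 16 and 0.04 for 4261. In every one of these signal ranges the ribosomal median was the higher one, as it was below 1000 (0.19 for 15 probes against -0.01 for 11834). Over the 174 ribosomal probes, which share both arrays and their labelling, the difference had a Spearman rho of -0.28 with the control level, -0.21 with the GC content of the probe and 0.20 with its position in the transcript. The corresponding values over 17329 other probes were 0.03, -0.19 and 0.06. The part of GC content and position in the ribosomal differences was not tested.

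The promoters of the ribosomal protein genes were searched for the pyrimidine tract that marks TOP mRNAs, using RefSeq start sites (assembly GRCm38.p6) and the bases from 10 before to 30 after the start. A tract was counted as a C followed by at least 6 bases that were each C or T, on the gene's own strand. Of the 75 ribosomal protein genes, 55 had a promoter in the reference table. A tract was found in 30 of these 55 (54.5%), against 19.6% of all 27025 genes with a promoter and 18.8% of 69 genes for mitochondrial ribosomal proteins. The windows below show 30 bases around the start for genes with high, middle and low differences, with the tract in capitals, and for Rpl3l, which has 2 starts in the table.
Rpl14, chr9:120571507-120571536, plus strand: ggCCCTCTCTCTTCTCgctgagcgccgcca
Rpl15, chr14:18270967-18270996, minus strand: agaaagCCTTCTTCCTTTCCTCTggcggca
Rps18, chr17:33955646-33955675, minus strand: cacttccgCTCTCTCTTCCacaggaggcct
Rpl38, chr11:114668570-114668599, plus strand: aagcctcgttCTTTCCCCgttctcttcggt
Rplp2, chr7:141447641-141447670, plus strand: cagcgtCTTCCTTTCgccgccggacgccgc
Rpl3l, chr17:24727816-24727845, plus strand: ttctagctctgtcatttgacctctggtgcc
Rpl3l, chr17:24732675-24732704, plus strand: caacagctacagtgccccaaatgtcctgaa
Rpl14 and Rplp2, at 0.39 and -0.18, both hold a tract, and neither Rpl3l window does. The median difference was 0.13 over the 30 genes with a tract and 0.09 over the 25 without, with ranges of -0.18 to 0.39 and -0.15 to 0.38 that overlap nearly throughout. The motif CCGGAAG, bound by ETS factors, was found on either strand within the 300 bases of the promoter in 22 of the 55 genes (40%), against 9.93% of all genes and 37.7% of the mitochondrial ribosomal protein genes. The letters TATAAA, on the gene's strand within 50 bases before the start, were in 0 of the 55, against 3.15% of all genes. These matches describe the sequence and show no binding.

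Genes tied to the ribosome by function were read from lists chosen with earlier results of these data known. Ribosomal proteins that the naming pattern misses lay within the range of the 75: Rps3a1 had 0.10, Rack1 0.10 and Fau 0.10. Of 19 measured TOP mRNAs on the list other than those of the naming pattern, 15 lay above 0, and their median was 0.12 (Rack1 and Fau are on this list too). Translation factors made up the extremes: Eif3e, a subunit of the initiation factor that prepares the small subunit, was highest at 0.30 (1541 in control and 2136 in N2ICD), and Eef1d, an exchange factor of elongation, was lowest at -0.26 (28795 and 27124). At least 1.2-fold higher were 2 of the 19, against 18.0% of all genes.

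The proteins of the mitochondrial ribosome, which are encoded in the nucleus by a separate set of genes, had a median of 0.04 over 78 genes, and 45 of them lay above 0. At least 1.2-fold higher were 3, against 18.0% of all genes, and 1.2-fold lower was 1, against 18.6%. Mrps18a had the largest difference at 0.51, with signals of 6616 and 10594, and its relative Mrps18b had -0.32, or 0.16 on the spike-in scale.

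Factors that assemble ribosomes in the nucleolus spread more widely than the proteins they assemble. Of 50 listed, 47 were measured, with a median of -0.02. The SD was 0.28, between 0.13 for the ribosomal protein genes and 0.38 for all genes, and the part of signal level in it was not tested. At least 1.2-fold higher were 8 (17.0% of them, against 18.0% of all genes), and 4 were 1.2-fold lower (18.6% of all genes were). Dkc1, the enzyme that converts uridines of ribosomal RNA to pseudouridine, had 0.82, from signals of 38.7 and 77.2. Nop58, a core protein of the complexes that methylate ribosomal RNA, had 0.77 (142 and 273), and Utp20, of the small subunit processome, had 0.79 (55.7 and 109). Nmd3, the export adaptor of the large subunit, had 0.54. These probes are dim, and after normexp correction the values were 0.31 for Dkc1, 0.58 for Nop58, 0.36 for Utp20 and 0.38 for Nmd3.

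Among 19 genes listed for growth signalling and TOP mRNA control, the median was 0.21. At least 1.2-fold higher were 9 (47.4%, against 18.0% of all genes), and 1.2-fold lower was 1 (18.6% of all genes were). The list mixes repressors such as Eif4ebp1 with kinases such as Rps6kb1, so the count gives no direction of growth signalling. It also holds genes without a direct part in TOP mRNA control, such as Cdkn1a, Mdm2 and Larp7, all among the 9. Because the list was chosen with earlier results of these data known, the count is only a description. Besides those named below, the 9 were Tsc2 (0.53), Rps6ka3 (0.52), Cdkn1a (0.50), Tsc1 (0.45), Mdm2 (0.30) and Larp7 (0.29). Eif4ebp1, the repressor of cap-dependent translation that mTOR inactivates, had 0.70 from 1 probe with control and N2ICD signals of 5079.9 and 9314. Rps6kb1, the kinase that phosphorylates Rps6, had 0.63 over 3 probes, and 0.37 after normexp correction. Larp4, of the La-related RNA-binding proteins, had 0.65. Mtor itself had 0.14 and Larp1, which holds TOP mRNAs when mTOR is inactive, had 0.16. Rps6ka1, a kinase that also acts on Rps6, had -0.82, from signals of 846 and 538.

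**Figure D4:**
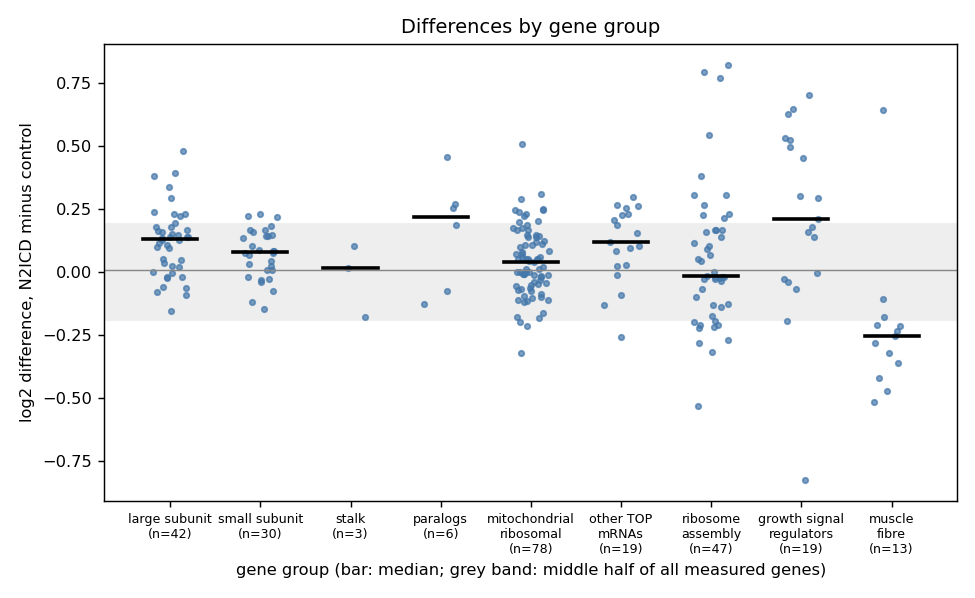
Points are measured genes placed by group (x axis) and log2 difference, N2ICD minus control (y axis), black bars are group medians, the grey line is the median and the grey band runs from the lower to the upper quartile of all measured genes. The ribosomal subunits form tight groups with medians of 0.13 and 0.08, ribosome assembly factors scatter around -0.02, and muscle fibre genes have a median of -0.26 (above 0 on the spike-in scale).

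Markers of the tissue and of other cells in it were read for the same arrays. The 13 muscle fibre markers were all measured, and 12 lay below 0, as did 6731 of all 13663 genes. Ckm had -0.52 (269612 in control and 212158 in N2ICD), or -0.34 with quantile normalization. The exception was Mb at 0.64 (116644 and 205259). The summed level of the 13, in units of each array's 75th percentile, was 23893 in control and 20456 in N2ICD. The label of the tissue was thus borne out by its defining genes on both arrays. The summed level of the 75 ribosomal protein genes on the same scale was 14747.5 and 15434. Of 12 fibroblast and matrix markers 10 lay below 0 (summed level 730.6 and 593), of 10 endothelial markers 6 (69.7 and 64.7), and of 10 measured leukocyte markers 8 (17.6 and 14.1, with Ptprc not measured). Of 7 erythroid markers 6 lay below 0 (1100.1 and 972). Of the 7 measured satellite cell markers 5 lay above 0, and Myf5 and Cxcr4 were not measured. The summed level of the 7 was 66.4 and 164, most of it Itga7 at 1.49, so the sum does not stand for the whole list. The other markers were Sdc4 at 0.86, Cdh15 at 0.73, Chrdl2 at 0.53, Pax7 at 0.14, Cd34 at -0.24 and Vcam1 at -0.31. Dim probes read Sdc4 (90.6 in control and 185.5 in N2ICD) and Chrdl2 (58.7 and 95.8). After normexp correction these genes lay at 0.52 and 0.23. The part of cell composition in the ribosomal differences was not tested, and in whole muscle a change in the number of cells and one in the RNA per cell cannot be told apart.

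**Figure D5:**
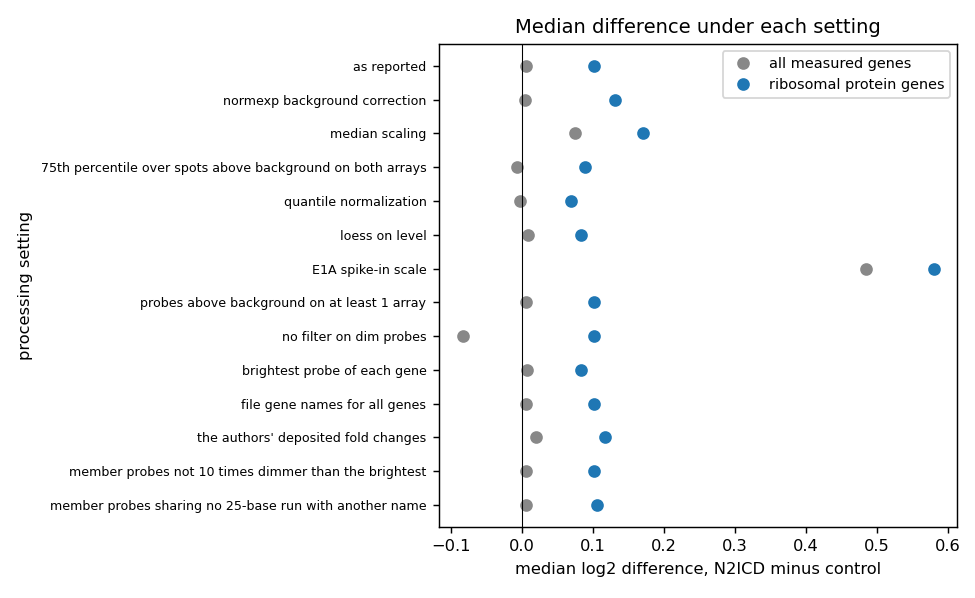
Median log2 difference, N2ICD minus control (x axis), of the ribosomal protein genes (blue) and of all measured genes (grey) under each processing setting (y axis). The ribosomal median lies above that of all genes in every setting shown, by 0.07 to 0.19, while both shift together to 0.58 and 0.48 on the spike-in scale.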

How the data were processed

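RNA of 1 control and 1 N2ICD muscle was labelled with Cy3 and hybridised, and the labels gave the groups. Per the file headers, the authors extracted spot intensity values in Agilent Feature Extraction 10.10.1.1 and placed probes on mm9; processed intensities are background-subtracted and not normalized between arrays. The authors' deposited table gives an unsigned fold (ratio) with a direction and a log2 value per array for each probe; no source used here describes its making, and it served as an alternative.

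The log2 processed signal was scaled on each array to the 75th percentile of its 59305 gene spots. The 215 outlier spots were dropped, repeated spots averaged, and each gene took the mean of those probes that were well above background on both arrays (182 of 191 member probes; 8 were not on either array and 1 on the N2ICD array alone). Members were named as in the files and other genes through reference names. The number of arrays limits the precision, and no test was run. Differences were counted at 1.2-fold and 2-fold.

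Named genes were the paralogs and their parents, 13 genes by name, the 8 highest and lowest differences, the 3 highest and lowest control signals, repeated probes, genes with probes over 0.5 apart, and up to 4 members of each list, not all of which are reported here. Rps25, Rpl10, Rpl13, Rps3, Rps29, Rpl36, Mtor and Larp1 were added after their values were seen. The members and lists were chosen with earlier results of these data known. The steps were tested on simulated data. Normexp used limma 3.58.1 (R 4.3.3); the rest ran in Python 3.11.15 with statsmodels 0.14.6, pandas 2.3.3, numpy 2.4.6 and matplotlib 3.10.9.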

Additional observations from a re-analysis of the deposited data

How the results depend on the processing

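The ribosomal median, the count of genes at least 1.2-fold higher and Rpl3l were recomputed under 13 alternatives for processing, 2 of them (without dim member probes, and without member probes that share a run of 25 bases with another name) chosen after seeing the data. Apart from the spike-in scale, the median lay between 0.07 (quantile normalization) and 0.17 (median scaling), Rpl3l between -0.13 and -0.0074, and the count between 2 and 12. The count was 12 with median scaling, where 24.4% of all genes were at least 1.2-fold higher, and 68 of 75 lay above 0 in place of 57, as did 60.7% of all genes in place of 50.7%. It was 2 without dim member probes, where 18.0% of all genes were at least 1.2-fold higher. At thresholds of 1.1-fold and 1.5-fold the count was 28 and 0. The share of all genes at those thresholds is not given here, so these counts cannot be set against the bulk of genes. On the E1A spike-in scale (7 of 10 probes used) the count was 75, where 77.3% of all genes were at least 1.2-fold higher. The median was then 0.58 and Rpl3l lay at 0.40, since every gene shifted by the same amount. That shift turned the sign of every value that lay below 0 by less than its size. Among these were Rpl3l, the 18 ribosomal protein genes below 0, and the medians of the matrix (0.20), muscle fibre, endothelial, leukocyte and erythroid lists. Further cases were Cd68 (0.037), Col1a1 (0.068), Col5a1 (0.015), Col6a1 (0.024), Esam (0.13), Mrps18b (0.16), Mylpf (0.0067), Pvalb (0.058), Tek (0.13) and Tyrobp (0.063). Cd68 was 0.15 without the filter on dim probes. Dim probes carry the widest spot noise, which limits Rpl21, Rpl7l1 and the assembly factors. No paired analysis was possible because each group holds 1 array, and for the same reason no replicate could be left out.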
